A study of Mus musculus with 4 samples.

Results

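The Hox cluster genes are the 39 protein-coding genes of the mm10 RefSeq annotation whose symbols consist of Hoxa, Hoxb, Hoxc or Hoxd and a number, of 21883 protein-coding genes placed on chromosomes. They were taken by symbol and not by a measured value, though earlier results of these data were known when members and classes were chosen. Of the 39, 38 are described. Hox genes encode homeodomain transcription factors and lie in 4 clusters, where the order of genes along the DNA follows the order of their domains along the head-to-tail axis of the embryo. Genes at corresponding places in the 4 clusters are called paralogues and share a number from 1 to 13. Low numbers pattern the hindbrain and pharyngeal region and high numbers the trunk, tail, limbs and hindgut. OTX2 is itself a homeodomain factor, of the bicoid type, and is known as a regulator of the anterior epiblast, the anterior endoderm and the forebrain and midbrain, regions anterior to the Hox domains. Below, paralogue groups 1 to 3 are called anterior (7 of the genes described), groups 4 to 8 central (15 genes) and groups 9 to 13 posterior (16 genes).

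OTX2 was mapped by CUT&RUN, in which an antibody brings a nuclease to a chromatin protein and the released DNA is sequenced. The mouse cell lines, named OTX2-dTAG-EGFP, have a BL6/129 hybrid background and carry HA-tagged OTX2. Of the 4 libraries, 3 used anti-HA and came from 3 separately named lines, and 1 used control IgG and came from a line that also gave an anti-HA library. All 4 are primitive streak (PS) cells, made from epiblast stem cells in 16 h with 40 ng/ml Activin A and 3 uM CHIR, which activates WNT signalling. For definitive endoderm (DE), the PS cells were then grown for 24 h with 100 ng/ml Activin A plus 100 nM LDN, a BMP receptor inhibitor. Live cells were sorted. The DE and EpiSC libraries were not analysed here, and their number, antibody and controls are not described. The DE calls below, with 20 DE only regions among the 25 at Hox genes, are from a stage that none of the 4 libraries covers. The tag sits in all groups, the IgG control included, and no untagged line is among the libraries. The deposited values are 4 lists of regions, bound in a stage written EPI and in PS (379 regions), in PS alone (1634), in PS and DE (6157) or in DE alone (31445). They hold no height and no value per library, so depth, replicate spread and the IgG signal are unknown, and nothing below was tested across libraries. Since no RNA was measured, the labelled cell types could not be checked against marker genes, and no expression of a Hox gene is known from these data.

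The Hox genes held 25 regions, each assigned by the place of its midpoint to the gene that contains it or to the nearest gene end within 100 kb. Of these, 0 were in EPI and PS, 1 in PS only, 4 in PS and DE and 20 in DE only. At least 1 region in any list was held by 11 of the 38 genes (28.9%), against 54.7% of all protein-coding genes. By list, an EPI and PS region was held by 0 Hox genes, against 1.45% of all genes, and a PS only region by 1 Hox gene (2.63%), against 5.6% of all genes. PS and DE regions lay at 2 Hox genes (5.26%), against 16.3% of all genes, and DE only regions at 10 (26.3%), against 50.1%. The median Hox gene therefore held 0 regions, and the median protein-coding gene 1. These shares move with the room around a gene, which is small in the clusters. The territory of a gene, meaning all positions that the rule would assign to it, had a median of 9.76 kb for Hox genes and 45.1 kb for all genes. Counted per length, Hox territories held 3.26 regions per 100 kb, against 1.81 in the territories of all genes, and without Hoxb1 they held 2.25. Without the whole Hoxb cluster the genes described held 1.51, so their higher density rested on Hoxb. By cluster the densities were 2.38 (Hoxa), 7.2 (Hoxb), 1.46 (Hoxc) and 0.766 (Hoxd). None of these differences was tested. Groups 2, 5 to 7, 11 and 12 held 0 regions in every cluster.

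Promoter sequences are shown for Hoxb1, the gene with the most regions, for Hoxa10 and Hoxb4, whose promoter windows lay closest to a region, and for Hoxd1, which holds the 1 region of its cluster. Each runs from 250 bases before to 50 bases after a start given for the gene, in the direction of transcription, from RefSeq (GRCm38.p6, the mm10 build). For Hoxb1 that start lies slightly inside the annotated gene span. Capitals mark the homeodomain core TAAT, read on either strand, and TGATNNAT, a form of the joint site of HOX and PBX proteins, read on either strand.
Hoxb1, chr11:96365508-96365807, strand +: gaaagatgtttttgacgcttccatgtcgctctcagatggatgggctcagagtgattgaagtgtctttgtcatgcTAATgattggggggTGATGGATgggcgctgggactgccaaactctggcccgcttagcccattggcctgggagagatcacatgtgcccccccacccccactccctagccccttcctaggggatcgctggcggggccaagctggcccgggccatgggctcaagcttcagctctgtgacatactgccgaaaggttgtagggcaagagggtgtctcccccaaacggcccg
Hoxa10, chr6:52240805-52241104, strand -: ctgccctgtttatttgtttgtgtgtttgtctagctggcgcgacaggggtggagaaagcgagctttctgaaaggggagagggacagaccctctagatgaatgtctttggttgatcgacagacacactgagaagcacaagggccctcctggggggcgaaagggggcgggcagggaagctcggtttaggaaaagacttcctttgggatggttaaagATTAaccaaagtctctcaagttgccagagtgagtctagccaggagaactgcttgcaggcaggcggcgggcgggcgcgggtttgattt
Hoxb4, chr11:96318017-96318316, strand +: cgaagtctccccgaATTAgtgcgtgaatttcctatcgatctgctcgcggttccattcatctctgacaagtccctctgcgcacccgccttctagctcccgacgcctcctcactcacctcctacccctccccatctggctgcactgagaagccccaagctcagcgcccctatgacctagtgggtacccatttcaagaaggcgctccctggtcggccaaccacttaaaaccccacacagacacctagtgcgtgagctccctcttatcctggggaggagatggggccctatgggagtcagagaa
Hoxd1, chr2:74762730-74763029, strand +: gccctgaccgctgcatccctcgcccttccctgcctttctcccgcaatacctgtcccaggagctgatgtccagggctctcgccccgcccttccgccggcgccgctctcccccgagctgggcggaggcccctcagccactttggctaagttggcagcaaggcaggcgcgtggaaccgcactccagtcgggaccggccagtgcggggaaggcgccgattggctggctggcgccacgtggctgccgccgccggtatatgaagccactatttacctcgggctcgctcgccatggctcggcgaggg

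None of the 24 promoter windows given for 22 Hox genes (Hoxa10 and Hoxd11 have a pair each) overlapped a region of any list, while 16.3% of the 21262 windows of protein-coding genes did. Hoxb, which held 17 of the 25 Hox regions, had windows for Hoxb1, Hoxb4 and Hoxb8 alone, and Hoxc for Hoxc4 alone. Hoxb3, Hoxb9, Hoxb13, Hoxc8 and Hoxc13 held regions but had no window. The shares of windows therefore describe mostly Hoxa and Hoxd, and no difference from the protein-coding windows was tested. The nearest region lay 240 bases from the Hoxa10 window printed above and 295 bases from that of Hoxb4. For Hoxd1 the distance was 2433 bases and for Hoxb1 2879 bases. TAATCC, the motif of bicoid-type homeodomains such as that of OTX2, was in 0 of the 24 Hox windows on either strand, against 6.42% of the protein-coding windows. TAAT was in 19 of 24 (79.2%), against 51.8%, and TGATNNAT in 4 (16.7%), against 7.45%. The windows with TGATNNAT belonged to Hoxa2, Hoxb1, Hoxb8 and Hoxd11. Any TAATCC also counts as a TAAT. The GC content of the Hox windows had a median of 57.7%, against 56.3% in the protein-coding windows. These are matches of letters in 300 bases and say nothing on binding elsewhere. Sequence of the regions themselves was not used here.

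Anterior Hox genes held 12 regions, at 3 of 7 genes (42.9%), against 9 regions at 5 of 16 posterior genes (31.2%). Central genes held 4, at 3 of 15 genes (20.0%). All of these shares lie below the 54.7% of all protein-coding genes. By list, the anterior genes had 0 PS only, 4 PS and DE and 8 DE only regions, while the posterior genes had 1 PS only, 0 PS and DE and 8 DE only regions. All 4 PS and DE regions at Hox genes therefore lay at anterior genes, 3 at Hoxb1 and 1 at Hoxd1. These are 2 of the 7 anterior genes (28.6%), beside 0 of the 16 posterior genes and 16.3% of all protein-coding genes. Over all genes there were 0.282 PS and DE regions per 100 kb. At that density the 0.367 Mb of posterior territory leaves room for few, so the 0 there is not shown to be a lack. Per length of territory, the anterior genes held 5.24 regions per 100 kb, the posterior genes 2.45 and the central genes 2.36, beside 1.81 over all protein-coding genes. Hoxb1 carried this order. Without it the other 6 anterior genes held 3 regions, fewer than the 9 of the posterior genes, and 1.74 per 100 kb, below the posterior density. The share of genes with a region did not turn, with 2 of these 6 (33.3%) near the 31.2% of the posterior genes. Counting only regions whose midpoint lies within the cluster spans drops all 9 regions of Hoxb1, so it is not a separate check. That count left 3 anterior regions at 2 of 7 genes and 6 posterior regions at 3 of 16 genes. The order of the counts turned, and no density is given for that setting. Regions near 1 gene are not independent and 7 genes of linked clusters are not replicates, so the anterior and posterior counts stand side by side with no test.

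**Figure D1:**
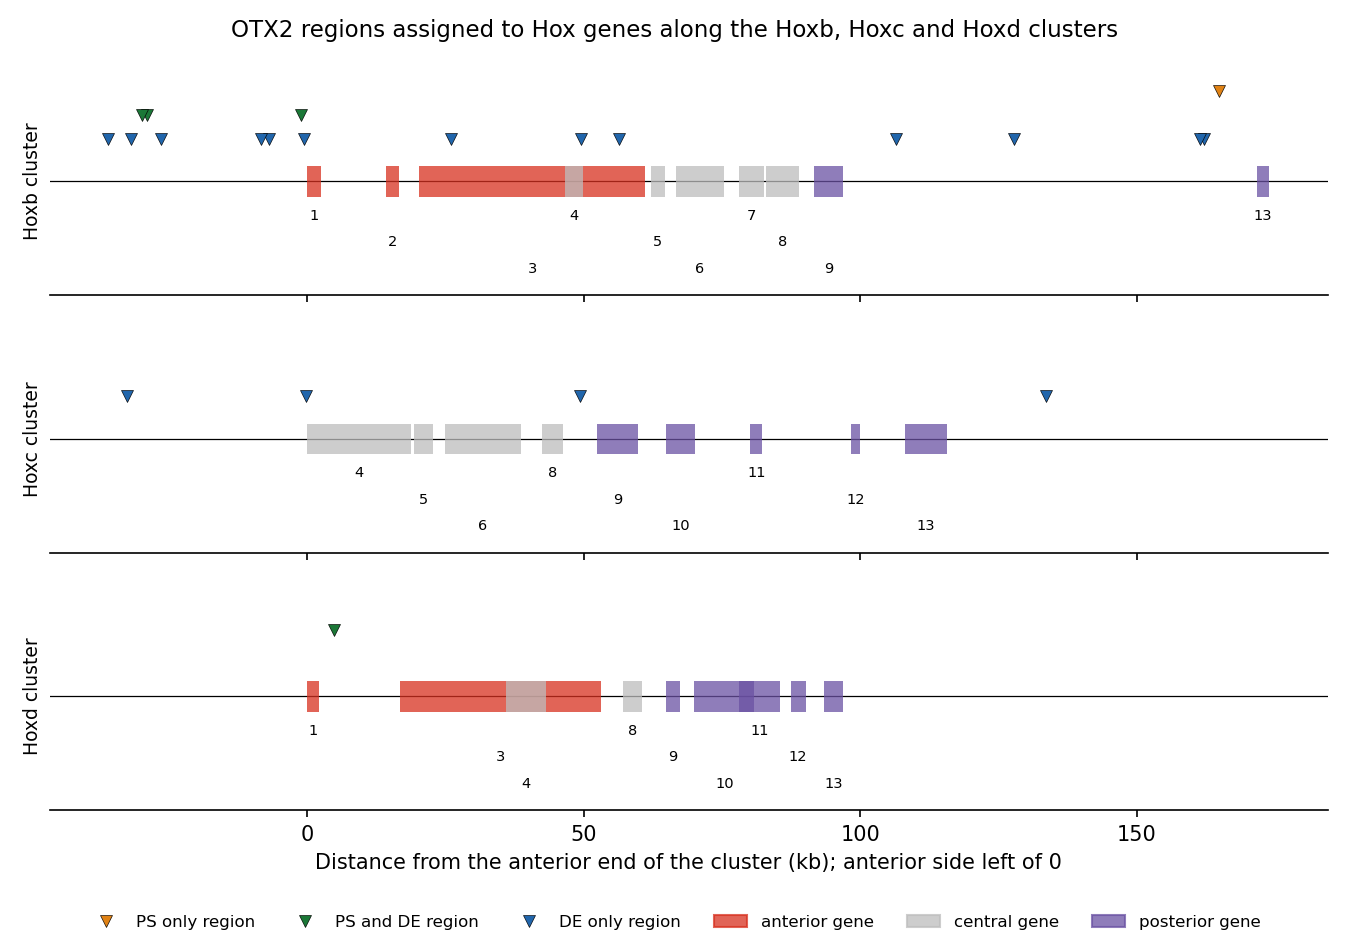
Hox genes (boxes, coloured by paralogue class and numbered by paralogue group) and the regions assigned to them (triangles at the region midpoints, coloured and raised by list) in the Hoxb, Hoxc and Hoxd clusters, against the distance in kb from the anterior end of each cluster. Of the 22 regions drawn, 11 lie beyond the anterior end, 10 within the cluster and 1 beyond the posterior end.

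Hoxb1 (chromosome 11, 96365746 to 96368254, plus strand, mm10) encodes a factor that gives the fourth rhombomere of the hindbrain its identity and is switched on by retinoic acid. It held 3 PS and DE and 6 DE only regions, 9 in all, and 639 of the 21883 genes (2.92%), Hoxb1 included, held at least as many. All 9 lay downstream of the gene, on the side away from the rest of the cluster, in a territory of 56.5 kb. This amounted to 15.9 regions per 100 kb. They fell in 3 places. Nearest the gene, a DE only region at 96368686 to 96368776 lay 0.477 kb past its end, and 1.03 kb past it followed one of PS and DE, at 96369235 to 96369327, with 0.458 kb between the pair. A second pair, both DE only, lay at 96374972 to 96375210 and 96376400 to 96376556, 6.84 and 8.22 kb past the gene. The remaining 5 regions lay 26.4 to 35.9 kb past it. Among these were the PS and DE regions at 96396980 to 96397349 (370 bp) and 96397957 to 96398155 (199 bp). A DE only region at 96399912 to 96400276 (365 bp) began 1.76 kb after the second of these. Distances are from region midpoints to the gene end. The list does not say which gene a region acts on, and the next gene on that side, Skap1, which encodes a T cell adaptor protein, starts at 96464570.

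Hoxd1 (chromosome 2, 74762980 to 74765142, plus strand), a paralogue of Hoxb1 at the anterior end of the Hoxd cluster, held 1 region, of PS and DE, at 74760043 to 74760297. It lay 2.81 kb upstream of the gene start, inside Haglr, a long noncoding RNA gene of the Hoxd cluster.

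In groups 2 and 3 only Hoxb3 held regions. Hoxa2 and Hoxb2, which pattern the hindbrain and, for Hoxa2, the second pharyngeal arch, held 0 regions in territories of 5.73 and 10.1 kb. Among the group 3 genes, which act in the pharyngeal organs and hindbrain, Hoxb3 held 2 DE only regions, at 96311748 to 96311847 and 96342125 to 96342200, both inside its span of 40.8 kb. Hoxa3 and Hoxd3 held 0, in territories of 38.7 and 38.5 kb. The 3 territories were nearly equal in length, that of Hoxb3 measuring 39.8 kb. Group 3 held 1.71 regions per 100 kb, near the 1.81 of all genes, and the short territories of group 2 leave little room for a region at that density.

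The central genes held 4 regions in territories with a median of 6.49 kb, shorter than the 38.7 kb of the anterior and 12.5 kb of the posterior genes. Hoxb4, studied as a regulator of blood stem cells, held 1 DE only region at 96318611 to 96318677 (67 bp), inside the gene. Hoxb4 lies within the span of Hoxb3, so that region is inside both genes. It counts as central because the rule takes the shorter gene. Its density of 29.7 regions per 100 kb comes from that 1 region in a territory of 3.37 kb. Hoxc4 held 2 DE only regions, at 103036929 to 103037004, 0.11 kb from the gene at the anterior end of the cluster, and at 103069219 to 103069349, 32.4 kb from it. The nearer one lay inside the noncoding gene Gm30528. Hoxc8, which shapes thoracic vertebrae and motor neurons of the forelimb level, held 1 DE only region 2.96 kb away, at 102987541 to 102987615. The other 12 central genes held 0, namely Hoxa4, Hoxa5, Hoxa6, Hoxa7, Hoxb5, Hoxb6, Hoxb7, Hoxb8, Hoxc5, Hoxc6, Hoxd4 and Hoxd8.

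By count, most posterior regions lay at group 13, which acts in the ends of limbs and the hind end of gut and urogenital tract. Hoxb13, a gene of the prostate and tail, held 1 PS only region at 96203384 to 96203488 and 2 DE only regions at 96206058 to 96206135 and 96206798 to 96206903, all on its side toward Hoxb9 and 6.83 to 10.2 kb away. The PS only region lay in the noncoding gene Gm30134. Hoxa13, a gene of the digits and genital tract, held 2 DE only regions beyond the posterior end of its cluster, at 52276122 to 52276260 and 52276558 to 52276664, 15.3 and 15.7 kb away. Hoxc13, a gene of hair and nails, held 1 DE only region at 102903244 to 102903336, 17.8 kb away. Hoxd13, which patterns the digits, held 0 in a territory of 8.44 kb. Group 13 thus held 6 of the 9 posterior regions at 3 of 4 genes, and its territories ran from the 8.44 kb of Hoxd13 to the 111 kb of Hoxc13. Its density was 2.88 regions per 100 kb, near the 2.8 of group 9 and the 2.91 of group 10, while groups 11 and 12 held 0. Per length, group 13 therefore did not stand above groups 9 and 10.

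The other 3 posterior regions belonged to groups 9 and 10. Hoxb9, which acts in the thoracic skeleton, held DE only regions at 96240387 to 96240466 and 96261692 to 96261759, 30.9 and 9.61 kb away, in the long interval toward Hoxb13. The second of these lay in the noncoding gene Gm53. Hoxa10, needed in the uterus and the lumbar skeleton, held a DE only region of 69 bp at 52240497 to 52240565, inside the gene. The 11 posterior genes with 0 regions were Hoxa9, Hoxa11, Hoxc9, Hoxc10, Hoxc11, Hoxc12, Hoxd9, Hoxd10, Hoxd11, Hoxd12 and Hoxd13. Over all classes, the 27 genes with 0 regions had territories of 2.02 to 38.7 kb (median 8.38), and the 11 genes with a region had territories of 3.37 to 111 kb (median 39.9).

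The longest stretches without a region were set beside the mean length of territory per region over all genes, 55.2 kb. A longest stretch tends to exceed a mean, so this is no measure of depletion, and none was tested. Those of Hoxc and Hoxd also reach beyond the posterior end of the cluster. In Hoxa, the genes from Hoxa2 to Hoxa9 held 0. In Hoxd, 96.4 kb between neighbouring region midpoints contained 8 of the 9 genes, Hoxd3 to Hoxd13. In Hoxc, 84.3 kb contained 5 genes, Hoxc9 to Hoxc13, and in Hoxb 50.1 kb, shorter than that mean, contained 5, Hoxb5 to Hoxb9. Within their spans the clusters held 1 region in 98.5 kb (Hoxa), 8 in 174 kb (Hoxb), 1 in 116 kb (Hoxc) and 1 in 96.9 kb (Hoxd). Together Hoxa, Hoxc and Hoxd held 0.964 regions per 100 kb of span, which is lower than the 1.81 over all gene territories, and Hoxb held 4.6. Of the 8 Hoxb regions, 5 lay between Hoxb13 and Hoxb9.

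Beside the Hoxb, Hoxc and Hoxd clusters, more regions lay on the anterior than on the posterior side. Here all regions of the 4 lists were counted, whatever gene they were assigned to. The 50 kb beyond the anterior ends held 11 regions, or 7.33 per 100 kb, against 3 regions, or 2 per 100 kb, in the 50 kb beyond the posterior ends. Hoxb had 9 on its anterior and 0 on its posterior side, and the other 2 clusters together had 2 anterior and 3 posterior regions, so without Hoxb the order turned. Hoxc had 2 anterior and 1 posterior, and Hoxd 0 anterior and 2 posterior. The 9 anterior regions of Hoxb were those assigned to Hoxb1, and the 2 of Hoxc those assigned to Hoxc4. The count on the anterior side is therefore not separate from the counts of those genes. With 100 kb windows the totals were 13 anterior and 7 posterior regions. Without Hoxb these became 3 anterior and 4 posterior, so the order turned there too.

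**Figure D2:**
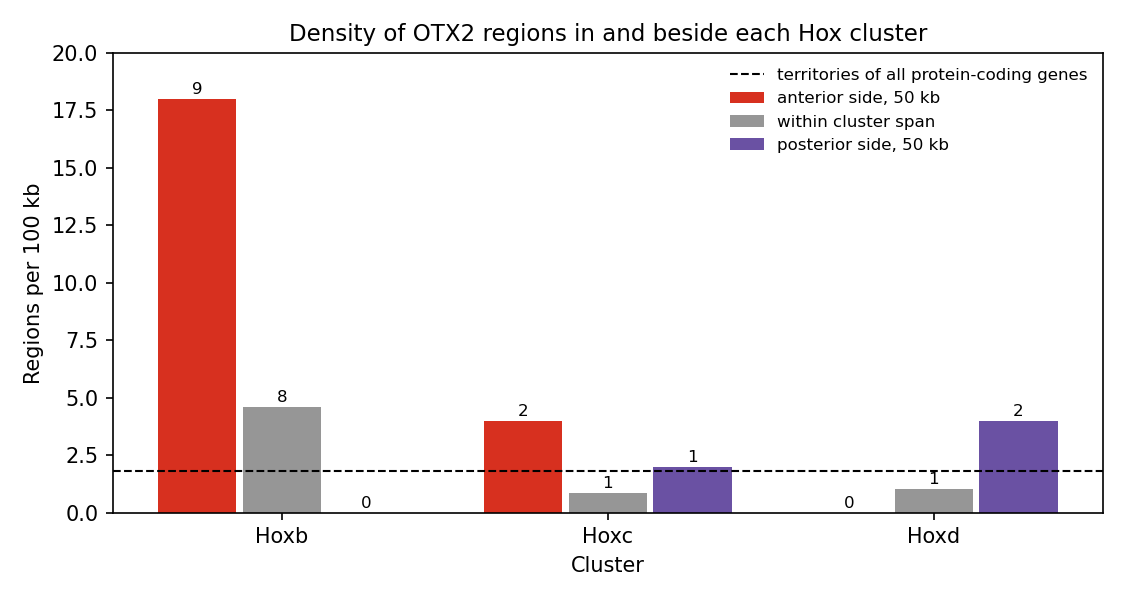
OTX2 regions of the 4 lists per 100 kb in the 50 kb beyond the anterior end, within the span, and in the 50 kb beyond the posterior end of the Hoxb, Hoxc and Hoxd clusters, with the number of regions above each bar; the dashed line is the density over the territories of all protein-coding genes, 1.81 per 100 kb. The anterior side of Hoxb stands highest, at 18 per 100 kb with 9 regions, which are those assigned to Hoxb1.

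Regions at anterior Hox genes had the larger median width. The genes were taken by symbol and not by region width, though earlier results of these data were known. The 12 anterior regions had a median width of 153.5 bp (62 to 370 bp), the 9 posterior regions 93 bp (68 to 139 bp) and the 4 central regions 75.5 bp (67 to 131 bp), beside 119 bp over all regions (quartiles 87 and 171 bp). At least 150 bp wide were 7 of the 12 anterior and 0 of the 9 posterior regions, beside 33.7% of all regions. The ranges overlapped, since the narrowest Hox region, of 62 bp, also lay at Hoxb1. Hoxb1 held 6 of the 7 wide regions, and the remaining one was the region of Hoxd1 (255 bp). Without Hoxb1 the anterior median was 100.0 bp, and 1 of 3 regions were at least 150 bp wide. Within their own lists, the regions of 370 bp and 365 bp at Hoxb1 were as wide as or wider than 98.2% and 98.7% of regions. Widths are the deposited extents and carry no signal height. No test over regions was made.

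**Figure D3:**
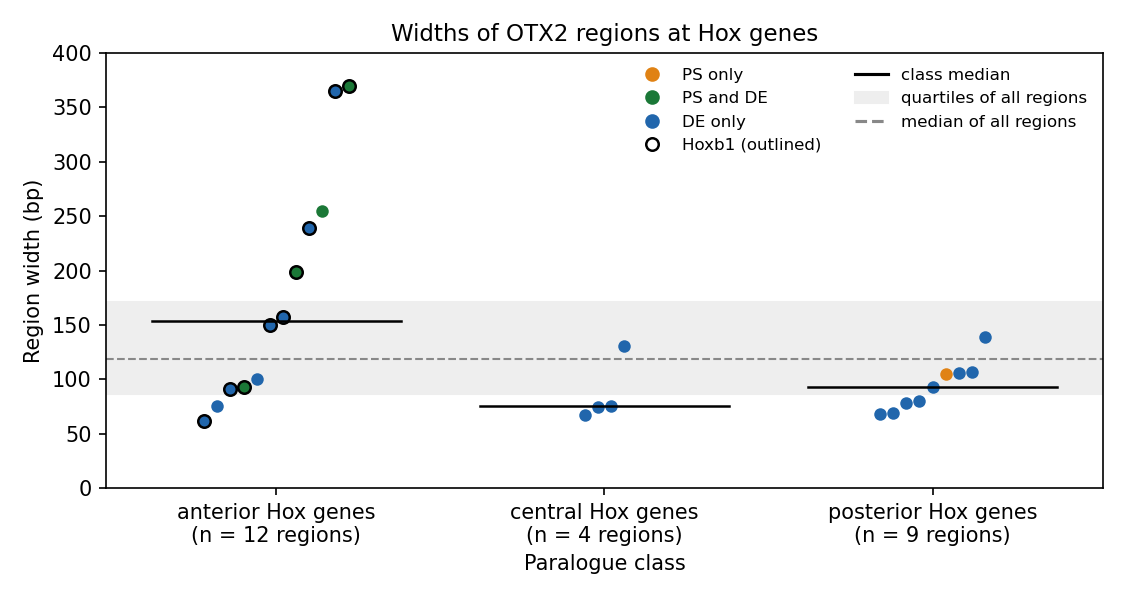
Width in bp of each region assigned to an anterior, central or posterior Hox gene, coloured by list, with Hoxb1 regions outlined; black lines are class medians, the grey band spans the quartiles of all regions and the dashed line is their median of 119 bp. All 7 Hox regions of at least 150 bp lie in the anterior class, whose median is 153.5 bp against 93 bp in the posterior class.

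Relative to gene bodies, 4 of the 25 Hox regions (16.0%) lay inside a Hox gene, against 53.9% of all assigned regions, whose genes are longer. Within 1 kb of an end of their gene were 4 of 25 (16.0%), against 14.9% of all assigned regions, a share near the background. Those 4 belonged to Hoxb1, Hoxb4, Hoxc4 and Hoxa10. PS only and DE only regions stood near each other at Hoxb13, with 2.57 kb between the PS only region and the closer DE only region.

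Among genes that work with or upstream of Hox factors, a larger share held a region than among the Hox genes (28.9%) or all protein-coding genes (54.7%). The 3 lists used here were chosen with earlier results of these data known, so their shares and densities are not an independent result. The list of 9 cofactor genes (Pbx, Meis and Pknox families, whose TALE homeodomain proteins bind DNA together with Hox proteins) held 49 regions at 8 genes, with 5 in PS and DE and 44 in DE only. Pknox2 held 13, Meis1 12, Pbx3 8 and Meis2 7. The list of 16 regulators of Hox transcription held 67 regions at 12 genes, with 2 in PS only, 11 in PS and DE and 54 in DE only. Rarb, a retinoic acid receptor gene, held 29, Cyp26a1, for an enzyme that degrades retinoic acid, 7, and Rara, another receptor gene, 6. Cdx2, for a homeodomain factor that activates posterior Hox genes, held 4, all in DE only, tied with 2 other genes of the list. The 5 ParaHox and Evx genes, relatives of the Hox genes, all held a region, 13 in sum, among them 4 at Evx1 and 3 at Pdx1, the factor of pancreas and duodenum. Per length these 3 lists had 2.52, 3.47 and 3.49 regions per 100 kb of territory, all above the 1.81 of all protein-coding genes. The Hox genes had 3.26, or 2.25 without Hoxb1. The higher share of hit genes stands beside both these densities and median territories of 293, 74.2 and 57.9 kb. None of these differences was tested.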

How the data were processed

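Anti-HA (3) and IgG (1) CUT&RUN libraries of 500000 PS cells each were described by the labels. Per the submitters' processing notes, the tools were MACS2 2.2.6, bedtools 2.30, Bowtie2 2.3.5.1, Picard 2.26.10 and SAMtools 1.14 (in no stated order, settings not named), on mm10. How replicates, IgG and stages were combined is not given in the sources used here. In the lists the authors deposited, rows hold chromosome, start and end, with no count, score or signal, and starts were converted to count from 1. The 2 DE only regions of an unplaced scaffold were dropped.

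Genes came from the RefSeq table of GRCm38.p6 (mm10), and all 39 Hox and 30 other listed symbols matched. Midpoints were assigned to the shortest gene that contains them, or to the nearest gene end within 100 kb. At 2000 positions the rule gave 0 mismatches against a second implementation. Work was done in Python 3.11.15 with pandas 2.3.3, numpy 2.4.6 and matplotlib 3.10.9. The members were named, except 1 Hox gene, which with its regions is not reported here, and up to 4 genes with the most regions per other list. Members, lists and classes were chosen with earlier results of these data known. No statistical test was run, since the lists hold no value per library. Alternatives were other assignment rules and distances, filters on width, merging within 500 bp, and other class limits.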

Additional observations from a re-analysis of the deposited data

How the results depend on the processing

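Of 101 alternative values, 82 stayed within 1.5 times the reported one, or for the median width within 1 SD of the widths, and 19 did not. Assignment within 50 kb or 1 Mb, by gene ends alone or by any base, merging within 500 bp and other class limits moved none past this. Anterior genes then held 12 to 15 regions and posterior genes 7 to 9. The 82 include counts that were 0 in every setting, those of EPI and PS and of PS and DE at posterior genes. The farthest Hox region lay 35.9 kb from its gene, so the 50 kb limit could remove none. The tally is therefore a weak measure of stability. The values that moved came from 3 settings, each of which removes regions by construction. Counting only midpoints within the cluster spans left 9 DE only regions at 6 Hox genes, with 2 at anterior and 5 at posterior genes, and 1 PS and DE region at 1 gene, which was anterior. Over all lists that setting, which drops the 9 regions of Hoxb1, gave 3 anterior and 6 posterior regions, so the order of the counts turned round. With regions of at least 150 bp there were 4 DE only regions at 1 gene, with 4 at anterior and 0 at posterior genes, and 0 PS only regions at 0 genes. With the wider part of each list (its median width or more) there were 6 DE only regions at 3 genes, with 4 at anterior and 1 at posterior genes, and 0 PS only regions at 0 genes. No paired analysis was possible because no value per library was used and the anti-HA and IgG groups share 1 replicate number. For the same reason no replicate could be left out. Counts of 1 to 4 regions are too few to order genes or clusters, and depth is unknown.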

Other observations

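The genes that flank the clusters within 250 kb held a region in 16 of 19 cases (84.2%), against 54.7% of all protein-coding genes, a difference that was not tested. The first share counts only regions within that window, the second any assigned region. Such shares move with the room around a gene, and no density per length is given for the flanking genes, so they are not shown to be rich in regions. Both flanking genes of Hoxa held regions, Skap2 on the anterior side 6 and Evx1 on the posterior side 4. At Hoxc, Smug1, which encodes a DNA repair glycosylase, held 7 DE only regions, Calcoco1 held 6 over 3 lists and Cbx5, for the heterochromatin protein HP1 alpha, held 4, while Hnrnpa1 held 0. At Hoxd, Lnpk held 3, Evx2 held 2 and Mtx2 held 1. Of the 8 flanking genes of Hoxb, 6 held 11 regions, of which Skap1, the neighbour of Hoxb1, had 2 in the window. Evx1 and Evx2, even-skipped homeobox genes at the posterior ends of Hoxa and Hoxd, stood next to Hoxa13 with 2 regions and Hoxd13 with 0.

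The clusters also contain miRNA genes of the miR-10, miR-196 and miR-615 families, and none overlapped a region. The closest was Mir10a, whose hairpin at chr11:96317165-96317274 (plus strand) ended 1.34 kb before the DE only region inside Hoxb4. For Mir196a-1 the gap was 3.4 kb, for Mir196b 10.3 kb, for Mir196a-2 14.1 kb, for Mir615 21.9 kb and for Mir10b 33.9 kb. miR-10 and miR-196 are known to target Hox transcripts. The mature 5p RNAs of miR-10 and miR-196 are shown (RefSeq, GRCm38.p6) with the seed, bases 2 to 8, in capitals. miR-10a-5p and miR-10b-5p share a seed, as do miR-196a-5p and miR-196b-5p.
miR-10a-5p: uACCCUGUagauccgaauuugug
miR-10b-5p: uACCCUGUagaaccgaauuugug
miR-196a-5p: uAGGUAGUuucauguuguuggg
miR-196b-5p: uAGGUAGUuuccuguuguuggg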
